A study of Mus musculus with 36 samples.

Results

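The genes of the mitogen-activated protein (MAP) kinase cascade, of the phosphatases that switch it off and of its Sprouty and Spred inhibitors were followed through 3 histone marks in mouse aortic smooth muscle cells. Members were taken by symbol: every gene of the Map4k, Map3k, Map2k, Mapk, Mapkapk, Dusp, Spry and Spred series, at peaks of any annotation. The series were chosen with earlier results of these data known. The rule gave 58 peaks at 30 genes, out of 13958 peaks at 9822 genes in all 3 tables. The RefSeq gene table of GRCm38.p6 holds 83 protein-coding genes of these series, so 36.1% of the family had a listed peak of any mark, against 23.7% of all 21887 protein-coding genes.

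The cells were primary aortic smooth muscle cells from mice with a whole-body knockout of CSE (cystathionine gamma-lyase, the product of Cth), a source of hydrogen sulfide in vessels. They were set against cells of C57BL/6N wild-type mice, and every group of either genotype received angiotensin II at 1 µM for 24 h, so a difference between genotypes cannot be separated into a part present before the peptide and a part that follows it. Chromatin immunoprecipitation with sequencing was done for H3K9ac, H3K9me3 and H3K4me3, with 3 immunoprecipitated and 3 input libraries for each mark and genotype, 36 in all. The labels do not say whether libraries of 1 group came from separate mice or cultures, and the enzyme is missing from all tissues of the knockout mice, not from smooth muscle alone.

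The authors' deposited tables list selected peaks only. Those of H3K9ac and H3K9me3 run up to a p of 0.05 and hold no p under 0.0001, so any peak with such a p would be missing here. They give 1 value per genotype and none per library, and that of H3K4me3 gives places without signal, fold or p. Depth and the spread between replicates are therefore unknown, and no test of the members over samples could be made. A signal below is the authors' mean of normalised reads in a peak on a log2 scale, a fold change is knockout over wild type, and FDR is the authors' false discovery rate. No peak of Cth itself is listed for any mark, so these values do not check the genotype labels. Of 10 smooth muscle markers, 6 had a listed H3K9ac peak (Acta2, Tagln, Smtn, Lmod1, Myocd and Des), and Myh11, Cnn1, Myl9 and Mylk had none. A list of selected differences does not show marker levels. Among markers of other cell types, H3K9ac peaks were listed for 2 of 8 endothelial, 2 of 8 leukocyte, 3 of 7 fibroblast, 1 of 4 adipocyte and 2 of 4 Schwann and neural genes. Of all protein-coding genes 18.1% had a listed H3K9ac peak. By gene, 5 of the 6 smooth muscle markers were lower in the knockout (83.3%, against 75.8% of all listed genes), among them Lmod1 (-1.23, FDR 0.0335), and Smtn was higher (0.95, FDR 0.0435) in the authors' deposited table. The leukocyte genes Cd14 and Aif1 were higher, and so were both Schwann and neural genes, S100b (2.21, FDR 0.0261) and Mbp, in the authors' deposited table. Of the fibroblast genes Ly6a (1.32, FDR 0.024) and Lum were higher and Pdgfra was lower in the authors' deposited table. Of the endothelial genes Pecam1 was higher and Vwf lower, and the adipocyte gene Lipe was lower. Of all these markers Lmod1, Smtn, S100b and Ly6a passed an FDR of 0.05, which 16.6% of all listed H3K9ac peaks passed. Their part in the values of the cascade was not tested.

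MAP kinase cascades are chains of protein kinases in which a MAP4K or a small GTPase activates a MAP3K, the MAP3K phosphorylates a MAP2K, and the MAP2K phosphorylates a MAP kinase of the ERK, JNK or p38 class on a threonine and a tyrosine. Dual-specificity phosphatases (Dusp) remove both phosphates, and Sprouty and Spred proteins restrain the path from Ras to ERK. In vascular smooth muscle, angiotensin II is a known activator of ERK, JNK and p38, and several Dusp genes are themselves induced by the kinases they silence. H3K9ac and H3K4me3 mark active promoters, H3K9ac also marks active enhancers, and H3K9me3 marks silent heterochromatin.

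H3K9ac was mostly lower in knockout cells at the cascade genes, as it was over the whole table. Of the 42 member peaks 37 were lower in the knockout (88.1%), against 77.2% of all 8115 listed peaks. Counted by gene, from the peak of smallest p, 18 of 23 members were lower (78.3%), against 75.8% of all 5911 listed genes. The share of genes was close to that of the table. The share of peaks was above it, with a few lower genes carrying many peaks: Dusp4 had 6, Dusp10 5, Map4k4 4, and Map2k2 and Map3k19 had 3 each. Genes with 3 or more peaks were 21.7% of the members and 7.31% of all listed genes. At an FDR under 0.05 there were 5 member peaks (11.9%), against 16.6% of all listed peaks. These 5 peaks, at Dusp4, Map4k4 (2 peaks), Mapk14 and Dusp10, were all lower in the knockout. Of the 83 family genes 27.7% had a listed H3K9ac peak, against 18.1% of all protein-coding genes. The median family gene spans 20.8 kb and the median protein-coding gene 17.2 kb, and the part of gene length in this share was not tested.

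**Figure D1:**
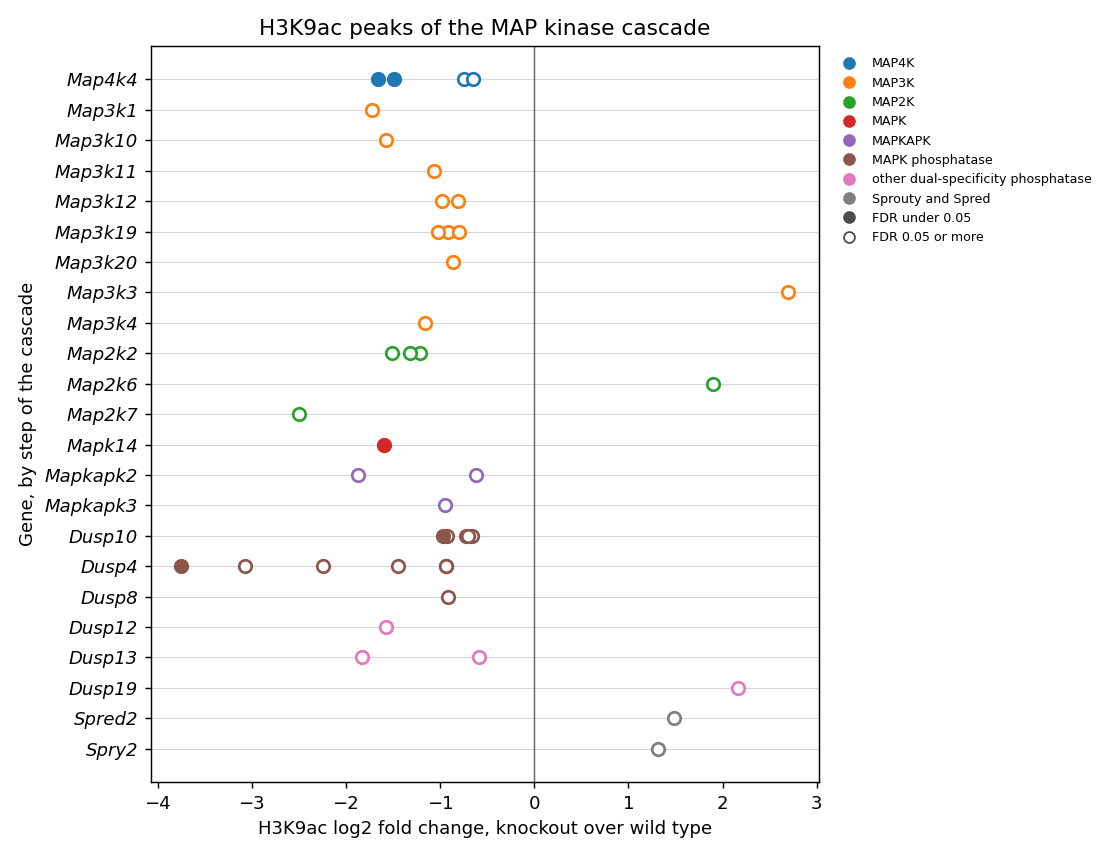
Each point is 1 listed H3K9ac peak of a cascade gene, placed by its log2 fold change of knockout over wild type (horizontal axis) and its gene (vertical axis, from MAP4K at the top to Sprouty and Spred at the bottom), with filled points for an FDR under 0.05 in the authors' table. The 5 points to the right of 0 belong to Map3k3, Map2k6, Dusp19, Spred2 and Spry2, and all 5 filled points lie to the left.

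The size of the difference followed the signal, among members as in the whole table. The 9 lower member peaks with a signal of 7 or more had a median log2 fold change of -0.86, and the 16 with a signal under 5 had a median of -1.63. Over all listed lower peaks the same medians were -0.84 and -1.61. A weak peak was listed only with a large fold: the smallest absolute log2 fold change was 0.89 among all listed peaks with a signal under 5, and 0.54 among those of 7 or more. Over all 37 lower member peaks the median was -1.02, which is 2.03-fold, against -1.13 for all listed lower peaks. In 11.9% of the member peaks the lower genotype had a log2 signal under 2.1, against 5.21% of all listed peaks.

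**Figure D2:**
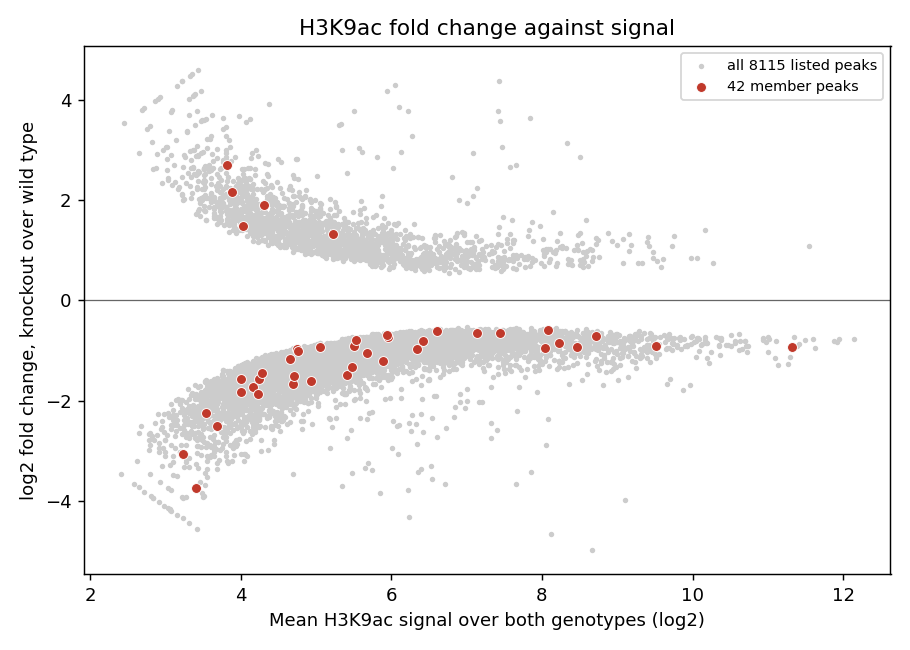
Log2 fold change of knockout over wild type (vertical axis) against the mean H3K9ac signal over both genotypes on a log2 scale (horizontal axis), for the 42 member peaks in red and all 8115 listed peaks in grey. Member peaks lie inside the band of the other peaks at the same signal, and the gap around 0 is the authors' selection.

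For 5 members the RefSeq promoter table used here holds a window of 300 bases around an annotated start (250 before, 50 after) under a listed H3K9ac or H3K4me3 peak, and these windows are shown because they are the promoter sequence under the peaks named here. Listed H3K9ac peaks also cover the RefSeq starts of Dusp4 and Map3k19, which are not among these windows. Sequences are from RefSeq (GRCm38.p6), on the strand of the gene, with 1 window per gene, the one nearest the centre of the peak. They lie at chr9:107289828-107290127 (Mapkapk3, minus strand), chr7:142095235-142095534 (Dusp8, minus), chr14:21741449-21741748 (Dusp13, minus), chr19:53528895-53529194 (Dusp5, plus) and chr19:6340910-6341209 (Map4k2, plus). Capitals mark matches to a searched motif.
Mapkapk3: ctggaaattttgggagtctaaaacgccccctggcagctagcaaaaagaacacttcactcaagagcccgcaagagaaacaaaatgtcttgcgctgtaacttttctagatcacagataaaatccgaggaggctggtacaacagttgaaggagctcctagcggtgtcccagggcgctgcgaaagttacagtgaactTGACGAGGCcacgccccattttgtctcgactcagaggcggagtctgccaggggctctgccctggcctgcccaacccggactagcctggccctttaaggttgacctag
Dusp8: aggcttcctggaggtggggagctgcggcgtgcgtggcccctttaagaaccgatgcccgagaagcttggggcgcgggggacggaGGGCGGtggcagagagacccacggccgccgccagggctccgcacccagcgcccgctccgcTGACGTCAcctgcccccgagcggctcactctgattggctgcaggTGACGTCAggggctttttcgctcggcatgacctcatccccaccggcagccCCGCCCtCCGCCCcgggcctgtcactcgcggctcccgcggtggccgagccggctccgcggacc
Dusp13: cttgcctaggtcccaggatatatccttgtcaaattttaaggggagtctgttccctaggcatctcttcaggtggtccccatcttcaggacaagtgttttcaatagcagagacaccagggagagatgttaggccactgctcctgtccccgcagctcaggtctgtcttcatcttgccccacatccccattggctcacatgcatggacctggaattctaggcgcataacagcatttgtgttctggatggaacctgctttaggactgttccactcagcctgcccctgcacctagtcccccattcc
Dusp5: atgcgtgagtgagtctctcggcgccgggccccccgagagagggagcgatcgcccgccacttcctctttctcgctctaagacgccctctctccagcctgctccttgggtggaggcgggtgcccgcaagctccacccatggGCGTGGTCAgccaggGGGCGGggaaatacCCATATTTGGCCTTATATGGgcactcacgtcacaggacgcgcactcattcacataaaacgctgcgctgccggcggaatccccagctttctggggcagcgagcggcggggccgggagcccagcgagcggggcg
Map4k2: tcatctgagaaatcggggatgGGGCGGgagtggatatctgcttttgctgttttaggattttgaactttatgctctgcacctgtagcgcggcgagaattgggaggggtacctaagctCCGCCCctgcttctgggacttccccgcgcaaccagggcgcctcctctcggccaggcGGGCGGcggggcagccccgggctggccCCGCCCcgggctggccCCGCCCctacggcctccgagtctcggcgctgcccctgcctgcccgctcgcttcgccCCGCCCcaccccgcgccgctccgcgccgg
The motifs searched, on both strands, were AP-1 (TGANTCA), the CRE core (TGACGTC), ETS (CCGGAAG), the GC box (GGGCGG), the E-box (CACGTG), an antioxidant element (TGACNNNGC) and the CArG box, by name. The antioxidant element can overlap a match of AP-1 or of the CRE core. The Dusp8 window holds 2 CRE core stretches, which begin 107 and 63 bases before the start and read the same on both strands, and 3 GC boxes. The CRE core occurs in 3.21% of all 32851 windows of the table, and the GC box in 35.7%. The Dusp5 window holds 2 CArG boxes side by side, which begin 82 and 72 bases before the start, besides 1 GC box and 1 antioxidant element. A CArG box, the site read by serum response factor, occurs in 1.63% of all windows. The Map4k2 window, of which 64.7% lies in the peak, holds 6 GC boxes, and Mapkapk3 holds 1 antioxidant element 57 bases before the start, an element found in 12.4% of all windows. The Dusp13 window holds none of the 7 motifs, and AP-1 (7.81% of all windows), ETS (8.86%) and the E-box (7.15%) occur in none of the 5 windows shown. Of the 7 windows under a peak, a further one of Mapkapk3 holds 1 E-box and 1 antioxidant element, and a further one of Dusp13 holds no match. Among the 80 windows of the family the GC box occurs in 62.5%, the antioxidant element in 27.5%, the CRE core in 5.00% and the CArG box in 1.25%. These matches describe the letters of the windows and do not show that a factor binds there.

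At the top of the cascade, Map4k4, a Ste20-type kinase upstream of JNK, had 4 H3K9ac peaks over 75.4 kb of its body, all lower in the knockout. In exon 5 of 31 (chr1:39976599-39977403) the authors' deposited table gives a signal of 4.48 in knockout and 5.97 in wild-type cells, a log2 fold change of -1.49 with p 0.000696 and FDR 0.0254. In intron 6 the signal of the authors' deposited table was 3.63 in knockout and 5.29 in wild-type cells (-1.66, p 0.00173, FDR 0.0458). Both of these passed the FDR threshold, and the other 2, in intron 2, did not. Their signals in the authors' deposited table were 6.77 in knockout against 7.43 in wild-type cells (-0.65, p 0.0161, FDR 0.178) and 5.55 in knockout against 6.29 in wild-type cells (-0.74, p 0.0312, FDR 0.256). Intron 2 also holds 1 of the 4 listed H3K4me3 peaks of the family, 5.54 kb from the nearer of these H3K9ac peaks. Map4k2, a germinal centre kinase, is listed for H3K4me3 only, at its promoter, and the nearest other gene to that peak, Men1, lies 0.122 kb away. Map4k1, Map4k3 and Map4k5 had no listed peak.

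Among the MAP3Ks, 8 of 18 genes had listed H3K9ac peaks, against 18.1% of all protein-coding genes. Of their 11 peaks 10 were lower in the knockout, against 77.2% of all listed peaks, and none had an FDR under 0.05. Map3k3 (MEKK3), a MAP3K used by the ERK5, JNK and p38 paths, was the exception. In its intron 2 of 15 the authors' deposited table gives 4.62 in knockout and 1.92 in wild-type cells, a log2 fold change of 2.70 (p 0.0028, FDR 0.0625), the largest fold on the higher side among the H3K9ac member peaks. In normalised reads that is 24.6 in knockout and 3.78 in wild-type cells, so the fold rests on few reads. Among the MAP3Ks the largest fold on the lower side was at Map3k1 (MEKK1, upstream of JNK), with 3.06 in knockout and 4.78 in wild-type cells in the authors' deposited table (-1.72, FDR 0.116). The mixed-lineage kinases Map3k10 and Map3k11, which activate JNK, had log2 fold changes of -1.57 and -1.06 in the authors' deposited table. Map3k12, the leucine-zipper kinase of the same group, had a pair of promoter peaks at -0.81 and -0.98 in the authors' deposited table. Map3k4 (MEKK4) was at -1.16 downstream of its gene, and Map3k20 (ZAK), a sensor of ribosome stress, at -0.86, per the authors' deposited table. Map3k19 had 3 peaks over 28.6 kb: in the authors' deposited table a promoter peak had a signal of 5.07 in knockout and 5.88 in wild-type cells (-0.80, p 0.0400, FDR 0.290). Its intron 10 held one of 4.98 in knockout against 5.90 in wild-type cells (-0.92, p 0.0205, FDR 0.205) and one of 4.16 in knockout against 5.18 in wild-type cells (-1.02, p 0.0386, FDR 0.284) in the authors' deposited table, so all 3 differed by a similar amount. Map3k5 (ASK1), a MAP3K activated by oxidative stress, was listed for H3K9me3 only, in intron 1. There the authors' deposited table gives 4.76 in knockout and 2.44 in wild-type cells (2.31, p 0.0456, FDR 1).

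The MAP2Ks split by gene. Map2k2 (MEK2), which phosphorylates ERK, had 3 lower H3K9ac peaks over 17.5 kb. In its intron 2 the authors' deposited table gives 5.16 in knockout and 6.37 in wild-type cells (-1.21, p 0.00314, FDR 0.067). The other 2 were 4.67 in knockout against 5.99 in wild-type cells (-1.32, p 0.00352, FDR 0.0717) and 3.76 in knockout against 5.27 in wild-type cells (-1.51, p 0.0227, FDR 0.217) in the authors' deposited table. The authors label both as promoter, but they lie 15.6 and 21.4 kb past the RefSeq gene start, the second outside the gene. Within 100 kb of Map2k2 there were 4 further H3K9ac peaks, at Atcayos, Eef2 and Sgta, all lower. Map2k7, which activates JNK, had 1 peak, labelled as promoter but 7.89 kb past the RefSeq gene start, with a signal of 1.94 in knockout and 4.45 in wild-type cells in the authors' deposited table (-2.50, p 0.00282, FDR 0.0627). This fold too rests on few normalised reads, 3.84 in knockout and 21.9 in wild-type cells.

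Map2k6 (MKK6), the activator of p38, differed in the opposite direction and in both marks. Its H3K9ac peak in intron 1 (chr11:110450090-110450472) had a signal of 4.96 in knockout and 3.07 in wild-type cells in the authors' deposited table (1.90, p 0.0195, FDR 0.199). All 4 of its H3K9me3 peaks, over 98.5 kb, were lower in the knockout. In intron 1 the authors' deposited table gives H3K9me3 signals of -0.42 in knockout against 3.65 in wild-type cells (-4.07, p 0.00518) and 1.69 in knockout against 3.95 in wild-type cells (-2.27, p 0.0491). Upstream of the gene, at 3.71 and 28.2 kb, they were -0.42 in knockout against 3.01 in wild-type cells (-3.43, p 0.0198) and 0.44 in knockout against 3.57 in wild-type cells (-3.14, p 0.0218) in the authors' deposited table. The H3K9ac peak lies 12.5 kb from the nearest of these H3K9me3 peaks. No member peaks of different marks overlap, and the overlap over all listed peaks was not counted. All 4 H3K9me3 peaks had an FDR of 1, and -0.42 is the lowest knockout H3K9me3 signal of the table, shared by 547 peaks. Within 100 kb there were 2 further H3K9me3 peaks, both at Abca5 and both lower. Map2k4 (MKK4), the other JNK activator, had 1 H3K9me3 peak 122 kb past the RefSeq gene start, with 3.56 in knockout and 0.55 in wild-type cells in the authors' deposited table (3.02, p 0.0305, FDR 1). Map2k1, Map2k3 and Map2k5 had no listed peak.

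Of the 13 MAP kinases 3 were listed for any mark, against 23.7% of all protein-coding genes, and the JNKs Mapk8 and Mapk9 were not. Mapk14 (p38 alpha) had 1 H3K9ac peak, in its 3' UTR at chr17:28744717-28745449, 53.4 kb past the RefSeq gene start. The authors' deposited table gives it 3.92 in knockout and 5.52 in wild-type cells (-1.60, p 0.000884, FDR 0.0296), so it passed the FDR threshold. Mapk10 (JNK3), the JNK of neurons and heart, had an H3K9me3 peak in intron 2 of 13 with 3.59 in knockout and 0.22 in wild-type cells in the authors' deposited table (3.38, p 0.0172, FDR 1). Mapk4 (ERK4), an atypical MAP kinase that binds the kinase Mapkapk5, had lower H3K9me3 at its promoter. There the signal of the authors' deposited table was 0.81 in knockout and 4.33 in wild-type cells (-3.52, p 0.0081, FDR 1). A further peak 14.9 kb upstream had 0.97 in knockout and 3.78 in wild-type cells in the authors' deposited table (-2.81, p 0.0368, FDR 1). An H3K4me3 peak of Mapk4 is also listed, 1.69 kb from the promoter H3K9me3 peak, with no direction given.

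The kinases that p38 activates were lower in H3K9ac. Mapkapk3 had a promoter peak over its start (chr9:107288907-107290757), the window shown above, with 7.49 in knockout and 8.44 in wild-type cells in the authors' deposited table (-0.95, p 0.00359, FDR 0.0726). Mapkapk2 (MK2), which controls the stability of inflammatory mRNAs, had an intron 1 peak with a log2 fold change of -0.62 and a weaker one downstream of the gene at -1.87 (p 0.033 and 0.00592) in the authors' deposited table. Neither gene passed the FDR threshold, and Mapkapk5 was not listed.

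The MAP kinase phosphatases carried most of the H3K9ac peaks of the inhibitory side, 12 peaks at 3 of 10 genes. A listed H3K9ac peak was found at 18.1% of all protein-coding genes. All 12 peaks were lower in the knockout, against 77.2% of all listed peaks. Dusp4, with 6 of them, lies on chromosome 8, and Dusp10, with 5, on chromosome 1. On these chromosomes 15.0% and 13.6% of all listed H3K9ac peaks were higher. The 6 peaks of Dusp4 (MKP-2), a nuclear phosphatase of ERK and JNK, were spread over 70.9 kb, and 0.846% of all listed genes had 6 or more. Its promoter peak (chr8:34805381-34812196), was the strongest of the members. The authors' deposited table gives it 10.77 in knockout and 11.71 in wild-type cells, that is 1746 normalised reads in knockout against 3350 in wild-type cells (-0.94, p 0.0256, FDR 0.230). Only 11 of the 8115 listed peaks had a higher signal. The exon 2 peak had 7.92 in knockout and 8.86 in wild-type cells in the authors' deposited table, again -0.94 (p 0.00201, FDR 0.0509). So both strong peaks at the gene itself were 1.92-fold lower, and neither passed the FDR threshold.

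The 4 remaining Dusp4 peaks were weaker, with larger folds, and 3 of them lie far upstream. At 54.7 kb upstream (chr8:34752710-34752946) the authors' deposited table gives 0.56 in knockout and 4.31 in wild-type cells, a log2 fold change of -3.75 (p 0.000209, FDR 0.0108). This was the smallest listed p of any member, and 188 listed H3K9ac peaks had a smaller one. In normalised reads the authors' deposited table means 1.47 in knockout and 19.8 in wild-type cells there, so the fold rests on few reads. At 57.8 kb upstream the signals were 1.00 in knockout and 4.07 in wild-type cells (-3.07, p 0.00234, FDR 0.0559) in the authors' deposited table. The peak 46.0 kb upstream had 3.39 in knockout against 4.84 in wild-type cells in the authors' deposited table (-1.45, p 0.0491, FDR 0.322). The last, 12.6 kb past the start, lies just beyond the end of the gene, 2.465 kb from the exon 2 peak, and had 2.02 in knockout against 4.26 in wild-type cells in the authors' deposited table (-2.24, p 0.012, FDR 0.150). No peak of another gene was listed within 100 kb of the Dusp4 peaks for any mark. The nearest other gene, Tnks, lies 67.5 to 79.3 kb from the 3 upstream peaks and 8.64 kb from the one beyond the end of the gene.

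Dusp10 (MKP-5), a phosphatase of JNK and p38, had 5 lower H3K9ac peaks over 37.1 kb. The one past the end of the gene, 41.3 kb from its start (chr1:184075716-184076939), had 5.77 in knockout and 6.75 in wild-type cells in the authors' deposited table (-0.97, p 0.00124, FDR 0.0368) and was the only one of the 5 to pass the FDR threshold. In intron 2 the strongest had 8.31 in knockout and 9.04 in wild-type cells in the authors' deposited table (-0.72, p 0.0343, FDR 0.268). The next had 7.07 in knockout against 7.73 in wild-type cells (-0.66, p 0.0209, FDR 0.207) in the authors' deposited table. The weaker pair of the same intron, 0.522 kb apart, had 5.55 in knockout against 6.25 in wild-type cells (-0.70, p 0.0441, FDR 0.305) and 4.52 in knockout against 5.45 in wild-type cells (-0.93, p 0.0392, FDR 0.287) in the authors' deposited table. Unlike Dusp4, the 5 peaks thus had folds within a narrow range, 1.58-fold to 1.96-fold lower. Dusp10 also had an H3K9me3 peak 126 kb past its start, 83.0 kb from the nearest H3K9ac peak, with 3.11 in knockout and 0.01 in wild-type cells in the authors' deposited table (3.10, p 0.0254, FDR 1).

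Dusp8, a phosphatase of JNK and p38, had 1 broad promoter peak (chr7:142092701-142096315) over the window with the CRE cores, with 512 normalised reads in knockout and 962 in wild-type cells in the authors' deposited table (-0.91, p 0.0348, FDR 0.270). Dusp5, a nuclear phosphatase specific for ERK, was listed for H3K4me3 only, over the window with the CArG boxes, with no direction. Of the 83 family genes 4.82% had a listed H3K4me3 peak, 4 genes, against 1.83% of all protein-coding genes. Dusp1, Dusp2, Dusp6, Dusp7, Dusp9 and Dusp16 had no listed peak of any mark.

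**Figure D3:**
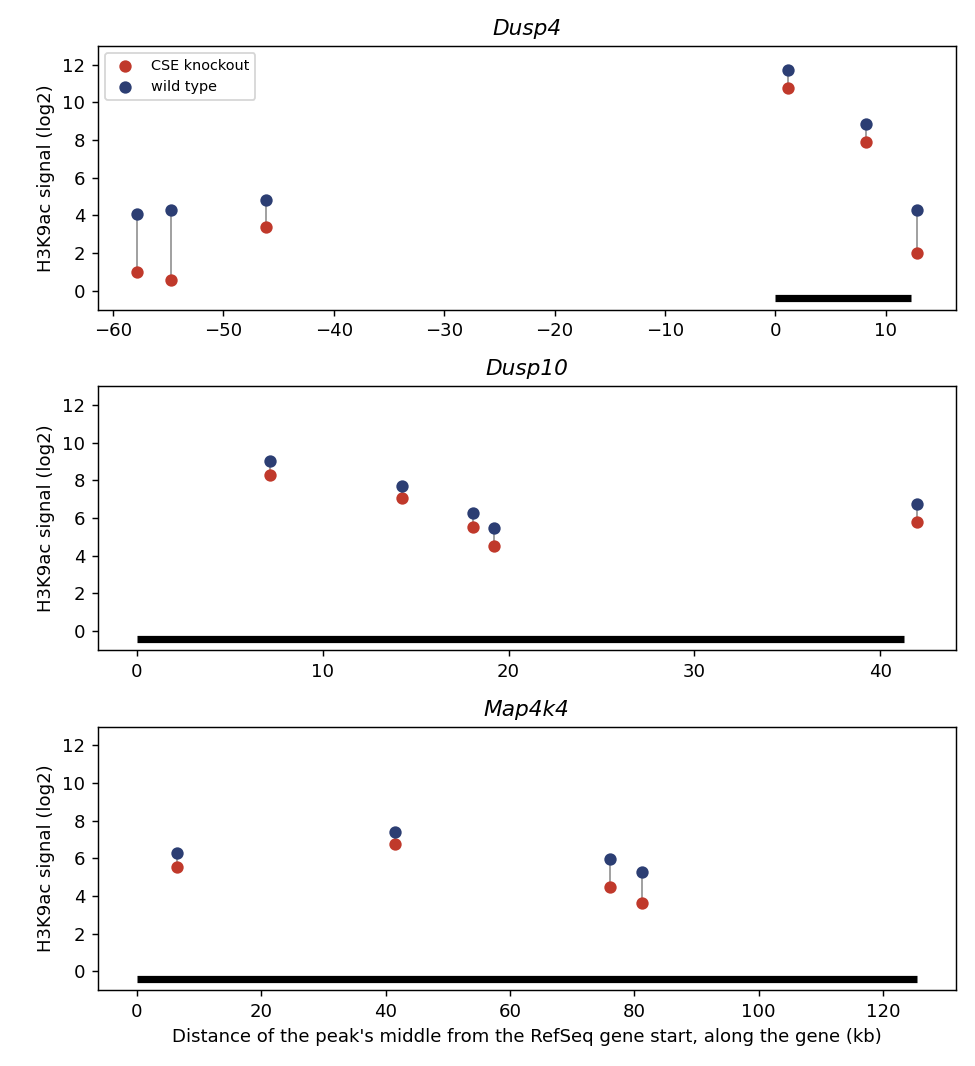
H3K9ac signal of each listed peak on a log2 scale (vertical axis) in knockout (red) and wild-type (blue) cells at Dusp4, Dusp10 and Map4k4, placed by the distance of the peak's middle from the RefSeq gene start in kb (horizontal axis), with the gene as a black line. All 15 peaks are lower in the knockout, and the 3 far upstream peaks of Dusp4 show larger gaps than its 2 strong peaks at the gene.

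The other dual-specificity phosphatases were mixed. Dusp19, which acts on the JNK path, had an H3K9ac peak 2.34 kb past its start with 4.59 in knockout and 2.43 in wild-type cells in the authors' deposited table (2.16, p 0.0099, FDR 0.134). Dusp13 had a promoter peak at -0.59, the smallest fold of any member, and a weaker one at -1.83 (FDR 0.309 and 0.223) in the authors' deposited table. Dusp12 was at -1.57 in the authors' deposited table, 10.7 kb upstream of its start and 10.2 kb from the next gene, Fcrlb (FDR 0.292). Among the members, Dusp26 had the H3K9me3 peak of smallest p on the higher side, 7.99 kb upstream. It had 5.10 in knockout and 1.75 in wild-type cells in the authors' deposited table (3.35, p 0.00544, FDR 1). On its chromosome 8, 88.6% of all listed H3K9me3 peaks were higher.

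Both listed Ras-ERK inhibitors were higher in H3K9ac. Spry2 (Sprouty 2) had a peak 4.89 kb past its start, downstream of the gene, with 5.74 in knockout and 4.42 in wild-type cells in the authors' deposited table (1.32, p 0.0269, FDR 0.237). Spred2 had one in intron 1 of 6, with 4.59 in knockout and 3.10 in wild-type cells in the authors' deposited table (1.48, p 0.029, FDR 0.245). Its H3K9me3 was higher as well, in intron 2, 20.6 kb away, with 3.71 in knockout and 0.01 in wild-type cells in the authors' deposited table (3.70, p 0.00981, FDR 1). Neither gene passed the FDR threshold, and Spry1, Spry3, Spry4, Spred1 and Spred3 had no listed peak.

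The 5 higher H3K9ac peaks were not spread evenly over the genome. All 3 member peaks on chromosome 11 (Map3k3, Map2k6 and Spred2) were higher, against 2 of 39 elsewhere (5.13%), Dusp19 on chromosome 2 and Spry2 on chromosome 14. Chromosome 11 as a whole had 209 of 440 listed H3K9ac peaks higher (47.5%), more than chromosome 2 (28.7%) or 14 (54 of 300). On chromosome 1, which holds Map4k4, Map3k19, Mapkapk2, Dusp10 and Dusp12, all 15 member peaks were lower, where 13.6% of all listed peaks were higher. The part of the chromosome in the direction of these genes was not tested. Where a member had 2 or more H3K9ac peaks they all went 1 way, in 8 of 8 genes, as did 83.1% of the 1388 listed genes with 2 or more.

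**Figure D4:**
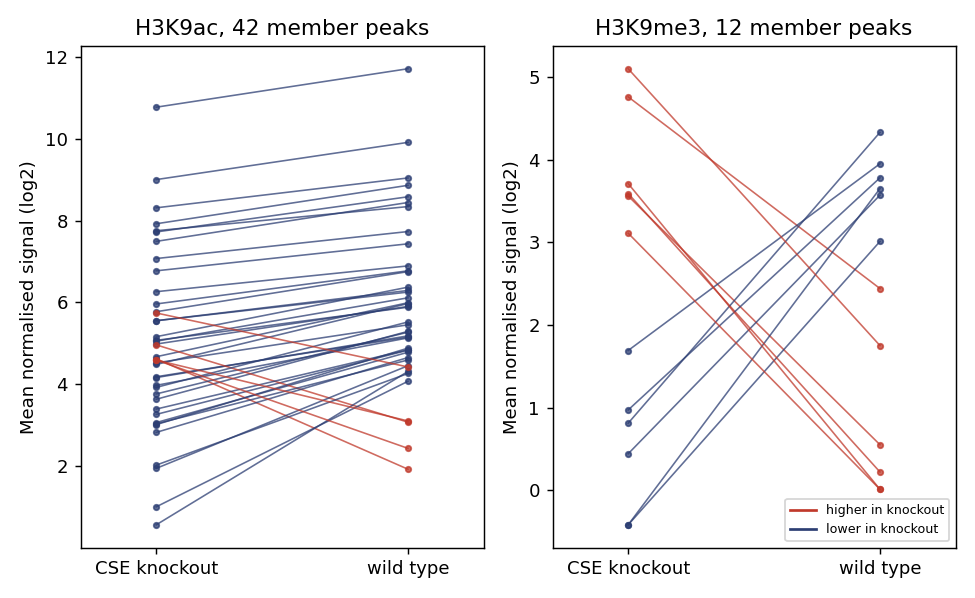
Mean normalised signal on a log2 scale (vertical axis) of each member peak in knockout (left) and wild-type (right) cells, for H3K9ac and H3K9me3, each line joining the 2 group means of 1 peak. H3K9ac lines are mostly shallow and fall toward the knockout, and H3K9me3 lines are steep, with 1 genotype near 0 in most of them.

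For H3K9me3, 6 of 12 member peaks were higher in the knockout (50.0%), against 61.0% of all 5374 listed peaks. By gene, 6 of 8 were higher (75.0%), against 60.4% of all listed genes, the 2 lower genes being Map2k6 and Mapk4. Of the 83 family genes 9.64% had a listed H3K9me3 peak, against 5.52% of all protein-coding genes. None of these peaks passed the FDR threshold, with an FDR of 1 for all 12. The medians were 3.23 on the higher and -3.29 on the lower side, and in 9 of 12 peaks the lower genotype had a log2 signal under 1 (75.0%, against 73.7% of all listed peaks). The folds of those peaks rest on few reads.

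Among the members, 5 were listed for 2 marks and 25 for 1, and the same share over all listed genes was not counted. None of the H3K9me3 peaks named here passed the FDR threshold. The nearest H3K9ac and H3K9me3 peaks lay 83.0 kb apart at Dusp10, 12.5 kb at Map2k6 and 20.6 kb at Spred2. A link between the marks was not tested. Dusp10 had lower H3K9ac and higher H3K9me3, Map2k6 had higher H3K9ac and lower H3K9me3, and Spred2 was higher in both. Map4k4 had lower H3K9ac with an H3K4me3 peak, and Mapk4 lower H3K9me3 with an H3K4me3 peak.

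**Figure D5:**
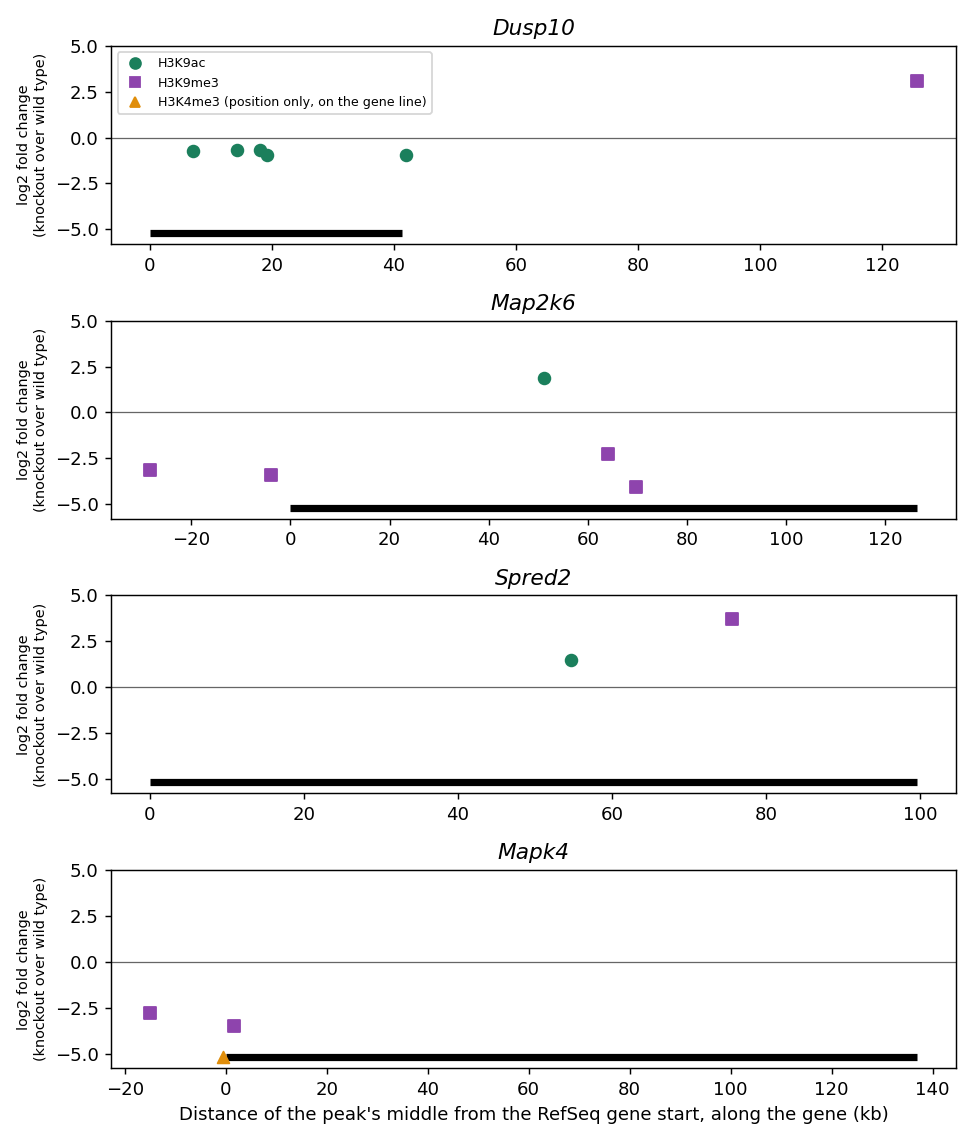
Log2 fold change of knockout over wild type (vertical axis) for each listed peak of Dusp10, Map2k6, Spred2 and Mapk4, placed by the distance of the peak's middle from the RefSeq gene start in kb (horizontal axis), with the gene as a black line. H3K9ac (circles) and H3K9me3 (squares) lie on opposite sides of 0 at Dusp10 and Map2k6 and on the same side at Spred2, and the H3K4me3 peak of Mapk4 (triangle) marks a position only.

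By annotation, 13 of the 42 H3K9ac member peaks were at promoters (31.0%, against 44.9% of all listed peaks), 16 in introns (38.1%, against 27.6%) and 6 distal (14.3%, against 17.5%). The remainder were in exons (3), downstream (3) and in 1 3' UTR. Of the 13 promoter peaks 12 were lower (92.3%), against 79.3% of all listed promoter peaks, and 25 of the 29 other member peaks were lower (86.2%). Of the 13, 7 lay over 3 kb from the RefSeq gene start, at Map2k2, Map2k7, Map3k12, Map3k20 and Dusp13, and the authors' own distances at these peaks are counted from another start.

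The rest of the pathway was described from 4 lists of genes that are not members. Of 26 receptors that feed the cascade, 10 had H3K9ac calls by gene, 8 lower and 2 higher, and 5 passed the FDR threshold. These 5 were Fgfr2 (-2.52), Ddr1 (-1.03), Igf1r (-1.29) and Tnfrsf1a (-1.09), all lower, and Tgfbr2, a TGF-beta receptor, which was higher at 3.62 (FDR 0.0396) and had the largest fold of the list, in the authors' deposited table. The Tgfbr2 signal was 4.43 in knockout and 0.81 in wild-type cells in the authors' deposited table, so this fold rests on few reads. Of 43 genes around Ras and Raf, 8 were lower and 2 higher, and 3 passed. Grb2, the adaptor that brings Sos to receptors, was higher at 1.37, and Lztr1 (-2.52), Rasa3 (-1.12) and Rasal2 (-1.20), which restrain Ras, were lower in the authors' deposited table. Of these 4 Rasal2 (FDR 0.0637) did not pass. Of 41 other kinases and scaffolds, 9 were lower and 4 higher, 3 of them past the threshold. Those of smallest p were Pak3 (2.74) and Mink1 (1.81), higher, and Iqgap1 (-1.59) and Pea15a (-1.12), lower in the authors' deposited table. Of these 4 Pea15a (FDR 0.0626) did not pass. Of 39 target transcription factors, 12 were lower and 6 higher, with 3 past the threshold. Those of smallest p were Fosl2 (-1.68), Fosb (-2.89), Ets1 (-1.70) and Ier5 (-0.94), in the authors' deposited table. Of these 4 Ier5 (FDR 0.05) did not pass. The Fosb fold also rests on few reads, with a signal of 1.51 in knockout and 4.4 in wild-type cells in the authors' deposited table. The lower shares of these lists were 80.0%, 80.0%, 69.2% and 66.7% of their listed genes, on either side of the 75.8% of the table. Listed H3K9ac genes were 10 of 26, 10 of 43, 13 of 41 and 18 of 39, against 18.1% of all protein-coding genes. By peak, 8 of 21, 4 of 19, 3 of 19 and 3 of 28 passed the FDR threshold, against 16.6% of all listed peaks. The share of all listed genes that passed was not counted. Listed H3K9me3 peaks by gene were lower at 2 receptors, lower at 3 and higher at 1 of the Ras and Raf genes, lower at 1 kinase or scaffold gene, and higher at 1 and lower at 1 transcription factor, where 60.4% of all listed genes were higher. None of these genes passed the FDR threshold, with an FDR of 0.825 to 1 in the authors' deposited table.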

How the data were processed

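H3K9ac, H3K9me3 and H3K4me3 peaks were analysed in smooth muscle cells of CSE knockout and wild-type mice. Per the file headers, the deposited H3K9ac and H3K9me3 values are the authors' log2 mean normalised reads per genotype, the log2 fold change with its p-value and FDR, and the H3K4me3 file has places and genes only. The submitters' processing notes name CASAVA 1.4 and mm9. No aligner, peak caller, normalisation or test is given in the sources used here. Positions of genes in the files matched GRCm38 for 99.7% of 4986 H3K9ac, 99.6% of 2776 H3K9me3 and all 432 H3K4me3 symbols, so positions are printed as GRCm38. A RefSeq GRCm38.p6 promoter window overlapped 9.45% of H3K9ac, 1.54% of H3K9me3 and 48.0% of H3K4me3 peaks, of which the authors annotate 44.9%, 12.3% and 87.6% as promoter.

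The deposited log2 fold change was the knockout minus the wild-type value, to within 0.01. Columns of other samples not used numbered 0. Members were counted with Python 3.11.15, numpy 2.4.6, pandas 2.3.3 and scipy 1.17.1, and figures drawn with matplotlib 3.10.9; the functions were tested on simulated data. No test was run on the list. The p-values are the authors' own, from a test not given in the sources used here; if made over libraries, they cover only the spread between those libraries, which may be technical. Members and lists were chosen with earlier results of these data known.

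Every listed member is named. Full values are given for members with an FDR under 0.05, with peaks of 2 marks or with 3 or more peaks of 1 mark, and for the 5 peaks of smallest p per mark and direction. Of each further list up to 4 genes of smallest p are named. Alternatives were stricter p, FDR, fold and signal, annotation, autosomes, 1 count per gene, and narrower and wider member sets. Protein sequences and input libraries were not used here.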

Additional observations from a re-analysis of the deposited data

How the results depend on the processing

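Of 56 recalculations, 48 left the result within its 95% exact binomial interval or within 1.5 times its count. Some could not move a result. No member peak lies on X or Y, and all H3K9me3 member folds exceed the fold limit. All 5 H3K9ac member peaks of FDR under 0.05 also pass the stricter p. The interval counts peaks of 1 gene as independent, and for H3K9me3 it spans 21.1% to 78.9% of peaks. The count of 48 is therefore no measure of robustness. With an FDR under 0.05, the lower share of H3K9ac became 100% of peaks and 100% of genes, because only 5 peaks of 4 genes are left. The 5 H3K9ac peaks of FDR under 0.05 became 2 with a signal minimum of 5, 0 at promoters, 3 without intergenic peaks and 13 at an FDR under 0.1. With promoter peaks only, 0.00% of H3K9me3 peaks and 0.00% of genes were higher, since 1 promoter peak is left. The H3K9ac lower share of peaks ranged from 78.3% (1 count per gene and direction) to 100%, and was 83.9% without Dusp4 and Dusp10. Without chromosome 11 it was 94.9% of peaks and 90.0% of genes. Without Map2k6, 75.0% of H3K9me3 peaks were higher. These exclusions of genes and of chromosome 11 were chosen after seeing the data. At an FDR under 0.05 no H3K9me3 member peak is left, so that alternative gave no value. No paired analysis was possible because the tables hold 1 value per genotype and none per library. For the same reason no library could be left out, no other normalisation could be tried, and depth limits could not be set. No peak with a p under 0.0001 is listed, so members with such peaks would be missing here.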

Other observations

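The deposited tables also annotate peaks to the KEGG MAPK signalling pathway, a list taken up after seeing the files. Without the members it held 86 listed genes. Of its 70 genes with an H3K9ac peak 58 were lower in the knockout (82.9%), and 97 of their 113 peaks (85.8%), against the 75.8% of genes and 77.2% of peaks given for the whole table. The gene of smallest p was Igf1, insulin-like growth factor 1, whose promoter peak had an H3K9ac signal of 8.42 in knockout and 9.77 in wild-type cells in the authors' deposited table (-1.35, p 0.000107, FDR 0.00655). Of its 16 genes with an H3K9me3 peak 8 were higher (50.0%), against 60.4% of all listed genes, and none passed an FDR of 0.05.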
